A study of Homo sapiens with 8 samples.

Results

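The immunoglobulin heavy-chain (IGH) genes were followed in DND-41 and MOLT-4, 2 established human T-cell acute lymphoblastic leukaemia lines, treated for 3 h with ACBI-1 at 100 nM, or given the solvent DMSO alone. The entries were chosen by symbol: every gene named as a numbered IGHV, IGHD or IGHJ segment, and the 9 constant genes. This rule took 279 entries with 161 symbols out of the 63677 annotated entries. No measured value decides membership, but the locus was taken up with its response and its difference between the lines already known, so all counts of members below are descriptions. The groups were DND-41 with ACBI-1, DND-41 with DMSO, MOLT-4 with ACBI-1 and MOLT-4 with DMSO, with 2 libraries of total RNA in each. The labels are silent on whether replicate libraries stem from separate cultures, and a p-value here reflects the spread between libraries, which may be technical. Each line stands for 1 leukaemia kept in culture, and neither is of the B lineage. ACBI-1 is a degrader that brings the chromatin-remodelling ATPases SMARCA2 and SMARCA4, and the accessory subunit PBRM1, to a ubiquitin ligase.

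The heavy chain of an antibody is assembled from 1 V, 1 D and 1 J segment by the RAG recombinase in developing B cells, and the joined exon is spliced to a constant gene. Before joining, unrearranged V segments are transcribed on their own from the promoter that lies in front of each, and D-to-J joining is also known in immature T cells. V segments are numbered from the end of the cluster next to the D segments, so IGHV1-3 lies near them and IGHV3-74 far away. Many V segments are pseudogenes, and copies called orphons, with OR in the symbol, lie on other chromosomes and cannot join to a J segment of the locus.

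The sequences show how alike the V segments are and where they end. The last 90 bases of the reference V exon of 6 segments that the results turn on are given here, 5′ to 3′, from GENCODE 29 on GRCh38. Capitals mark GTATTACTGTG, the 11-base string shared by most annotated V genes near their end, which spells the codons of a pair of tyrosines and of the conserved cysteine there. The segments lie on the minus strand at chr14:106196700-106196990 (IGHV3-19), chr14:106005095-106005574 (IGHV1-3), chr14:106129540-106130072 (IGHV3-13), chr14:106373663-106374145 (IGHV4-34), chr14:106627249-106627825 (IGHV4-59) and chr15:22184967-22185402 (the orphon IGHV4OR15-8).
IGHV3-19: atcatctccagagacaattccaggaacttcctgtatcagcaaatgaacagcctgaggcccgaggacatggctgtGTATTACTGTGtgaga
IGHV1-3: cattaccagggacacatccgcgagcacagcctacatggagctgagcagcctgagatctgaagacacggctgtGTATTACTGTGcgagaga
IGHV3-13: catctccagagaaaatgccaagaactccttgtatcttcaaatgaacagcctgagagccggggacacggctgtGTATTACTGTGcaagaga
IGHV4OR15-8: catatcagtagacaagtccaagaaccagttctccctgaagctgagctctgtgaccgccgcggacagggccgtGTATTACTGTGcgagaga
IGHV4-34: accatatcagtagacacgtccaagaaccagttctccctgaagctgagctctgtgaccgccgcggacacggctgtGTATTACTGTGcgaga
IGHV4-59: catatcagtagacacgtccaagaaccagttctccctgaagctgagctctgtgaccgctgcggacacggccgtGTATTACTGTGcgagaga
All 6 hold the string, IGHV3-19 too, which GENCODE 29 annotates as a pseudogene. On the sense strand it was present in 71 of 150 V transcripts of GENCODE 29, pseudogenes and orphons included (47.3%), and in 50 of the 59 annotated as V genes (84.7%), and on the other strand in 0. The string was picked as the one found in most annotated V genes near their end, so its high share among them was set by that choice.

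Orphon and locus copies can differ by few bases, which bears on how their reads were counted. A 90-base stretch of IGHV4OR15-8 and of IGHV4-4, at chr14:106011922-106012420, shows this, with the 3 differing bases in capitals.
IGHV4OR15-8: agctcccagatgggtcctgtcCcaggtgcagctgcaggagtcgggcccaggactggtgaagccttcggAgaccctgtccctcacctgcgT
IGHV4-4: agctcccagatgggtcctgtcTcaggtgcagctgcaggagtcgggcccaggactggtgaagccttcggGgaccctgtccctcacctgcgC
Over the 353 bases compared, the pair differed at 7 bases (98.0% identity). IGHV3-30 and IGHV3-33 were 98.8% identical, IGHV4-59 and IGHV4-61 were 98.0% identical, and IGHV3-19 was 96.2% identical to IGHV3-35. The counts of these segments are therefore uncertain between the copies, since reads of near-identical stretches can be split or dropped by the counting.

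The total per library was 19867779 to 20082524 counts, and 13.3% to 20.04% of it came from mitochondrially encoded genes. A count of 0 in a library allows up to 3 counts, or 0.151 counts per 1000000 (CPM) at most, by counting error alone. The markers of T cells were present in all libraries: the 17 symbols listed summed to 5440 to 5507 CPM in DND-41 with ACBI-1, 5338 to 5393 CPM in DND-41 with DMSO, 5271 to 5380 CPM in MOLT-4 with ACBI-1 and 5341 to 5456 CPM in MOLT-4 with DMSO. Of 20 B-cell marker symbols, 3 were at 0 throughout, among them MS4A1, the CD20 antigen. PAX5, the factor that commits cells to the B lineage, had 0 to 2 counts in a library. CD79A, a signalling subunit of the B-cell receptor that some T-cell leukaemias also carry, had 31024 and 34682 counts in DND-41 with ACBI-1, against 33986 and 35375 with DMSO. In MOLT-4 it had 213 and 246 counts with ACBI-1, against 176 and 314 with DMSO. Of the B-cell list, 9 genes passed the filter on low counts in DND-41 and 8 in MOLT-4. Among them, IGLL1 had 8894 to 10787 counts in a DND-41 library and 2682 to 2844 in a MOLT-4 library. BLK had 2099 to 2368 counts in DND-41 and 1450 to 1608 in MOLT-4. EBF1 had 207 to 272 counts in DND-41 and 0 to 1 in MOLT-4. The sum of the B-cell list overlapped between treatments in DND-41 (2155 to 2450 CPM with ACBI-1 and 2327 to 2431 CPM with DMSO) and in MOLT-4 (244 to 253 CPM with ACBI-1 and 247 CPM in both DMSO libraries).

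Nearly all heavy-chain counts lay on V segments. Over the 8 libraries the members had 17946 counts, of which 16341 lay on V segments of the locus, 1597 on orphons and 8 on a constant gene. Of the 155 V entries, 71 had at least 1 count. The 54 D entries of the locus and the 18 J entries were at 0 in every library. These segments are short, 11 to 37 bases for D and 46 to 61 bases for J in GENCODE 29, against reads of 100 bases, which limits what the counting could assign to them.

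Of the constant genes, which encode the antibody classes, IGHM was the single one with counts. IGHM had 0 and 2 counts in DND-41 with ACBI-1, against 1 and 1 with DMSO. In MOLT-4 it had 0 and 3 counts with ACBI-1, against 1 and 0 with DMSO. No library passed the 3 counts that a count of 0 allows. IGHD, IGHA1, IGHA2, IGHE, IGHG1, IGHG2, IGHG3 and IGHG4 were at 0 in all 8 libraries. Constant genes have several long exons, so their counts at or under the floor stand beside V segments with up to 759 counts in a library. Of the light-chain loci, the 108 IGK entries had 1 count in all. The IGL entries were above the floor and summed to 241 and 336 counts in DND-41 with ACBI-1, against 301 and 247 with DMSO. In MOLT-4 the IGL sum was 103 and 112 counts with ACBI-1, against 139 and 166 with DMSO, with no overlap.

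Of the 161 symbols, 118 were listed under 2 gene identifiers. In 63 of these the counts lay on 1 of the 2 entries, in 55 both entries were at 0, and in none did both hold counts. Values below are those of the entry with counts. Of the 83 entries with a count, 36 had fewer than 20 counts over the 8 libraries.

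The summed level of all members was higher with ACBI-1 in both lines. In DND-41 the sum was 3690 and 4244 counts with ACBI-1, against 3130 and 3327 counts with DMSO. In MOLT-4 it was 962 and 993 counts with ACBI-1, against 784 and 816 counts with DMSO. The groups did not overlap in either line. As means, these were 198 ± 19.4 CPM with ACBI-1 and 161 ± 6.30 CPM with DMSO in DND-41 (SD, n = 2 each), a ratio of 1.23. In MOLT-4 they were 49.1 ± 1.16 CPM with ACBI-1 and 40.2 ± 1.17 CPM with DMSO (SD, n = 2 each), a ratio of 1.22. An exact permutation test of 2 against 2 libraries cannot go below p = 0.333, so no p is given for these sums. The members took 0.0198% of all counts in DND-41 with ACBI-1, 0.0161% in DND-41 with DMSO, 0.00491% in MOLT-4 with ACBI-1 and 0.00402% in MOLT-4 with DMSO. In bulk RNA, more cells with a transcript and more transcript per cell cannot be told apart.

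A few segments held a large part of the signal in DND-41. IGHV3-19, a pseudogene, had 682 and 759 counts with ACBI-1, against 481 and 521 with DMSO. IGHV4-34, a functional V gene known for autoreactive antibodies, had 510 and 517 counts with ACBI-1, against 613 and 606 with DMSO. IGHV1-3, a functional V gene near the D segments, had 450 and 548 counts with ACBI-1, against 360 and 385 with DMSO. The 3 together made 43.7% of the sum with ACBI-1 and 45.9% with DMSO, and the 5 highest of each group made 54.7% with ACBI-1 and 55.5% with DMSO. IGHV3-19 was the highest segment with ACBI-1, and IGHV4-34 the highest with DMSO. Per kilobase of exon, IGHV3-19 was at 124 CPM with ACBI-1 and 86.0 CPM with DMSO, and IGHV4-34 at 64.1 CPM with ACBI-1 and 76.1 CPM with DMSO. IGHV1-3 was at 63.1 CPM per kilobase with ACBI-1 and 47.1 with DMSO. The level then dropped: the next 2 by mean CPM, IGHV1-24 and IGHV4OR15-8, had 126 to 252 counts in a library.

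**Figure D1:**
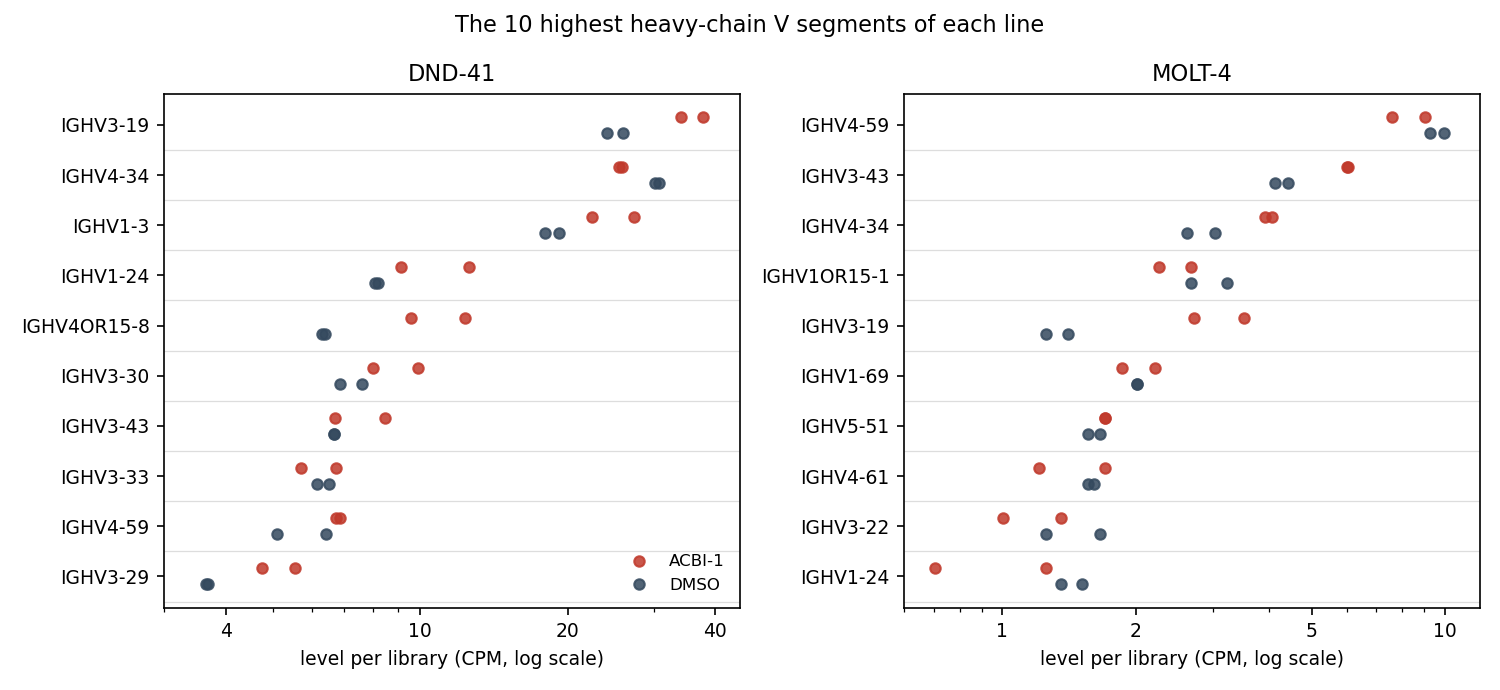
Level of the 10 highest V segments or orphons of each line, in CPM on a log axis, with 1 point per library (ACBI-1 drawn above DMSO within each row). In DND-41 the ACBI-1 points of IGHV3-19, IGHV1-3 and IGHV4OR15-8 lie to the right of the DMSO points, while those of IGHV4-34 lie to the left. In MOLT-4 the ACBI-1 points of IGHV3-19, IGHV3-43 and IGHV4-34 lie to the right.

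MOLT-4 had another order of segments. IGHV4-59, a functional gene far from the D segments, led with 151 and 179 counts with ACBI-1, against 184 and 198 with DMSO. IGHV3-43 followed with 120 and 120 counts with ACBI-1, against 88 and 82 with DMSO. IGHV4-34 had 78 and 81 counts with ACBI-1, against 60 and 52 with DMSO. IGHV4-59 made 16.9% of the MOLT-4 sum with ACBI-1 and 23.9% with DMSO, but 3.43% of the DND-41 sum with ACBI-1 and 3.58% with DMSO. Per kilobase of exon, IGHV4-59 was at 16.7 CPM with ACBI-1 and 19.4 CPM with DMSO, and IGHV3-43 at 13.9 CPM with ACBI-1 and 9.85 CPM with DMSO. The orphon IGHV1OR15-1 had 45 and 53 counts with ACBI-1, against 53 and 64 with DMSO, and IGHV3-19 had 70 and 54 counts with ACBI-1, against 25 and 28 with DMSO.

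In DND-41, 9 members were higher and 0 lower with ACBI-1 by edgeR's quasi-likelihood test at an adjusted p under 0.05 over all genes. They were 9 of the 35 members that passed the filter on low counts, or 25.7%. Of all 14019 genes tested in this line, 9.83% were called, 3.78% as higher and 6.05% as lower. The other 244 entries were not tested. A member that passed the filter through its ACBI-1 libraries alone had to differ, so the share over tested members is no support. The median log2 fold change was 0.40 over the tested members and 0.0029 over all tested genes. Both ACBI-1 libraries lay above both DMSO libraries for 21 of the 35 members (60.0%), against 25.8% of all tested genes, and below them for 6.

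The called members of DND-41 covered high and low segments. IGHV3-19 stood 0.51 ± 0.087 (SE) higher on the log2 scale (edgeR adjusted p = 9.64e-05). The orphon IGHV4OR15-8 had 192 and 247 counts with ACBI-1, against 126 and 128 with DMSO (0.78 ± 0.14, edgeR adjusted p = 0.000284). IGHV1-3 differed by 0.41 ± 0.10 (edgeR adjusted p = 0.00554), with the counts given above. In these 3 members the groups did not overlap and each library held over 100 counts.

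Other called members were smaller. IGHV3-15, a functional gene, had 88 and 80 counts with ACBI-1, against 43 and 38 with DMSO (1.04 ± 0.22, edgeR adjusted p = 0.00152). IGHV1-18 had 32 and 33 counts with ACBI-1, against 9 and 7 with DMSO (1.996 ± 0.39, edgeR adjusted p = 0.000588). IGHV5-51, from the small IGHV5 family, had 56 and 74 counts with ACBI-1, against 31 and 37 with DMSO (0.92 ± 0.25, edgeR adjusted p = 0.0127). All 3 are annotated as V genes rather than pseudogenes, and their groups did not overlap. IGHV1-18 passed the filter on low counts only with its ACBI-1 libraries, so it had to differ to be tested. IGHV4-4 had 59 and 80 counts with ACBI-1, against 44 and 35 with DMSO (0.80 ± 0.24, edgeR adjusted p = 0.0267), and is the near copy of IGHV4OR15-8 shown above, matched to GENCODE 29 by symbol.

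The last 2 calls rested on few reads. The pseudogene IGHV4-55 had 10 and 12 counts with ACBI-1, against 2 and 1 with DMSO, a ratio of 7.33 with an exact 95% counting interval of 2.20 to 38.3 (edgeR adjusted p = 0.00919). IGHV3-9 had 10 and 13 counts with ACBI-1, against 3 and 0 with DMSO, a ratio of 7.67 with an interval of 2.32 to 39.9 (edgeR adjusted p = 0.0111). In both the ACBI-1 libraries lay above the DMSO libraries, at under 1 CPM in every library. IGHV4-55 lost its call in each fit without 1 library that still tested it. IGHV3-9 kept it without DMSO replicate 1, with a log2 fold change of 6.53, and lost it without DMSO replicate 2 (1.89, edgeR adjusted p = 0.276).

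No member fell in DND-41 at that threshold. IGHV4-34 came closest, at -0.26 ± 0.087 on the log2 scale (edgeR adjusted p = 0.0558), and its groups did not overlap. IGHV3-33-2, IGHV4-39, IGHV3-41, IGHV3-38 and IGHV7-34-1 were the other tested members whose ACBI-1 libraries lay below the DMSO libraries, with log2 fold changes of -0.74 to -0.19 and adjusted p of 0.277 or more. Of the 10 highest members, IGHV1-24 had 183 and 252 counts with ACBI-1, against 164 and 162 with DMSO (0.41 ± 0.14, edgeR adjusted p = 0.0629). IGHV3-30 had 160 and 198 counts with ACBI-1, against 137 and 153 with DMSO (adjusted p = 0.232 by edgeR). Its near copy IGHV3-33 had 114 and 135 counts with ACBI-1, against 123 and 131 with DMSO (adjusted p = 0.935 by edgeR). IGHV3-43 had 134 and 170 counts with ACBI-1, against 133 and 134 with DMSO, and IGHV4-59 had 137 and 135 counts with ACBI-1, against 102 and 129 with DMSO. The pseudogene IGHV3-29 had 95 and 111 counts with ACBI-1, against 73 and 74 with DMSO (adjusted p = 0.101 by edgeR).

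The number of DND-41 calls depended on single libraries and on the tool. Without ACBI-1 replicate 1, 0 of 37 tested members were called, and without ACBI-1 replicate 2, 0 of 33. In those fits 3 and 177 genes were called in the whole table, against 1378 with all libraries. Without DMSO replicate 1 the count was 5 members. DESeq2 called 3 members, IGHV3-19, IGHV4OR15-8 and IGHV3-15, and the authors' deposited table for DND-41 called 2, IGHV3-19 (adjusted p = 0.00217) and IGHV4OR15-8 (adjusted p = 0.0126), both higher with ACBI-1. With no filter on low counts edgeR called 0 members and 2 genes in all.

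In MOLT-4, 4 members were higher and 0 lower with ACBI-1, out of the 19 that passed the filter (21.1%). Of all 14470 genes tested in MOLT-4, 10.8% were called, 3.9% as higher and 6.94% as lower. As in DND-41, members that passed the filter through their ACBI-1 libraries alone had to differ, so the share is no support. IGHV3-13, a functional gene, had 32 and 34 counts with ACBI-1, against 8 and 4 with DMSO (2.41 ± 0.41, edgeR adjusted p = 0.000159). IGHV3-19 differed by 1.19 ± 0.25 (edgeR adjusted p = 0.00176). IGHV1-3 had 23 and 40 counts with ACBI-1, against 8 and 14 with DMSO (1.48 ± 0.39, edgeR adjusted p = 0.0114). The groups did not overlap in any of the 4. IGHV4OR15-8 had 19 and 17 counts with ACBI-1, against 5 and 5 with DMSO (1.79 ± 0.47, edgeR adjusted p = 0.0119). IGHV3-13, IGHV1-3 and IGHV4OR15-8 passed the filter only with their ACBI-1 libraries.

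The leading MOLT-4 segments were not among the called ones. IGHV4-59 was at -0.24 ± 0.13 on the log2 scale (edgeR adjusted p = 0.305). IGHV3-43 had 0.47 ± 0.16 (edgeR adjusted p = 0.0638) and IGHV4-34 had 0.48 ± 0.20 (edgeR adjusted p = 0.137), with both ACBI-1 libraries above both DMSO libraries in each. IGHV1-69, a functional gene common in antiviral antibodies, had 44 and 37 counts with ACBI-1, against 40 and 40 with DMSO. IGHV5-51 had 34 and 34 counts with ACBI-1, against 31 and 33 with DMSO. IGHV4-61 had 34 and 24 counts with ACBI-1, against 31 and 32 with DMSO, and the pseudogene IGHV3-22 had 20 and 27 counts with ACBI-1, against 25 and 33 with DMSO. IGHV1-24 had 25 and 14 counts with ACBI-1, against 27 and 30 with DMSO. The edgeR adjusted p of these last 5 segments was at least 0.323.

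Over the 19 tested MOLT-4 members the median log2 fold change was 0.070, against -0.00097 over all tested genes. Both ACBI-1 libraries lay above both DMSO libraries for 9 of the 19 (47.4%), against 29.2% of all tested genes, and below them for 2. The limit set by the filter holds for this share too. Without ACBI-1 replicate 1 or replicate 2, 0 members and 0 genes in all were called. DESeq2 called 0 members here, with 8 of the 19 at an unadjusted edgeR p under 0.05. It gave IGHV3-19 an adjusted p of 0.0640 and the other 3 none. In the authors' deposited table for MOLT-4, whose sign runs as DMSO over ACBI-1, IGHV3-19 had a log2 fold change of -1.20 and an adjusted p of 0.0640. With no filter on low counts edgeR called 0 members and 39 genes.

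The response was uneven along the cluster. V segments were divided by number into 1 to 27, 28 to 54 and 55 to 81, a division made after the values were seen, so no test was run. Segments 1 to 27, nearest the D segments, summed to 1719 and 2039 counts with ACBI-1 in DND-41, against 1246 and 1343 with DMSO, a ratio of 1.45 in CPM. In MOLT-4 the same stretch had 223 and 239 counts with ACBI-1, against 117 and 137 with DMSO, a ratio of 1.82. The groups did not overlap in either line. This stretch made 47.4% of the DND-41 sum with ACBI-1 and 40.1% with DMSO. In MOLT-4 it made 23.6% with ACBI-1 and 15.9% with DMSO.

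Farther from the D segments the lines parted. Segments 28 to 54 had 1407 and 1578 counts with ACBI-1 in DND-41, against 1470 and 1534 with DMSO, a ratio of 0.994 with overlapping groups. In MOLT-4 they had 380 and 379 counts with ACBI-1, against 298 and 279 with DMSO, a ratio of 1.31. Segments 55 to 81 had 231 and 213 counts with ACBI-1 in DND-41, against 142 and 188 with DMSO (ratio 1.35), and 280 and 287 counts with ACBI-1 in MOLT-4, against 293 and 319 with DMSO (ratio 0.925). The last stretch was thus above DMSO in DND-41 and below it in MOLT-4, without overlap in either, and the difference was not tested for the sums.

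**Figure D2:**
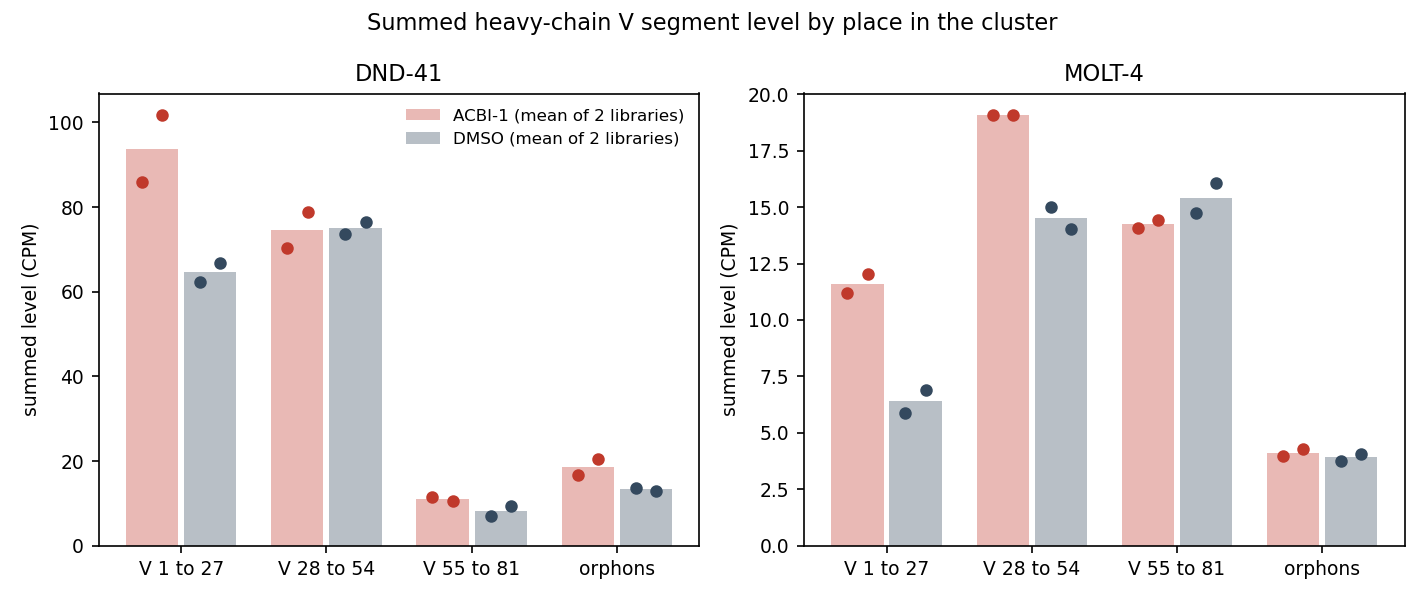
Summed level of V segments in CPM by stretch of segment number, and of orphons, with bars for the mean of 2 libraries and points for each library (ACBI-1 left of DMSO). In both lines the ACBI-1 points of segments 1 to 27 lie above the DMSO points. For segments 28 to 54 they overlap in DND-41 and lie above in MOLT-4.

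Single segments were also read by stretch. The entries taken had at least 20 counts summed over the 4 libraries of a line, both treatments together. Some segments, among them IGHV3-9 and IGHV4-55 in DND-41 and IGHV3-13 in MOLT-4, reached this floor only through their ACBI-1 libraries. The numbers of segments above and below are therefore no support in either line. In DND-41, 12 of 14 in segments 1 to 27 had both ACBI-1 libraries above both DMSO libraries, and 0 had them below. In segments 28 to 54 it was 6 above and 7 below of 20, and in segments 55 to 81 it was 3 above and 0 below of 6. In MOLT-4 it was 6 above and 2 below of 9 in segments 1 to 27, 5 above and 0 below of 11 in segments 28 to 54, and 0 above and 1 below of 6 in segments 55 to 81. In DND-41, 6 of the 12 tested in segments 1 to 27 were called, 1 of the 15 in segments 28 to 54 and 1 of the 5 in segments 55 to 81. In MOLT-4, 3 of 5 were called in segments 1 to 27, 0 of 8 in segments 28 to 54 and 0 of 3 in segments 55 to 81 by edgeR. The shares of all genes called as higher were the 3.78% and 3.9% given above. The numbers of called segments cannot be weighed against them. The filter on low counts was passed by some segments only with their ACBI-1 libraries. Among them were IGHV3-9 and IGHV4-55 in DND-41, and IGHV3-13 and IGHV1-3 in MOLT-4. Such segments had to differ to be tested, so the numbers of calls by stretch are no support. Both ACBI-1 libraries lay above both DMSO libraries for 25.8% of all tested genes in DND-41 and 29.2% in MOLT-4. Those 2 shares are over genes past the edgeR filter, not over genes at the floor of 20 counts. The fitted fold change in MOLT-4 was above 0 for 3 of 5 segments in the first stretch, 8 of 8 in the second and 0 of 3 in the last.

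**Figure D3:**
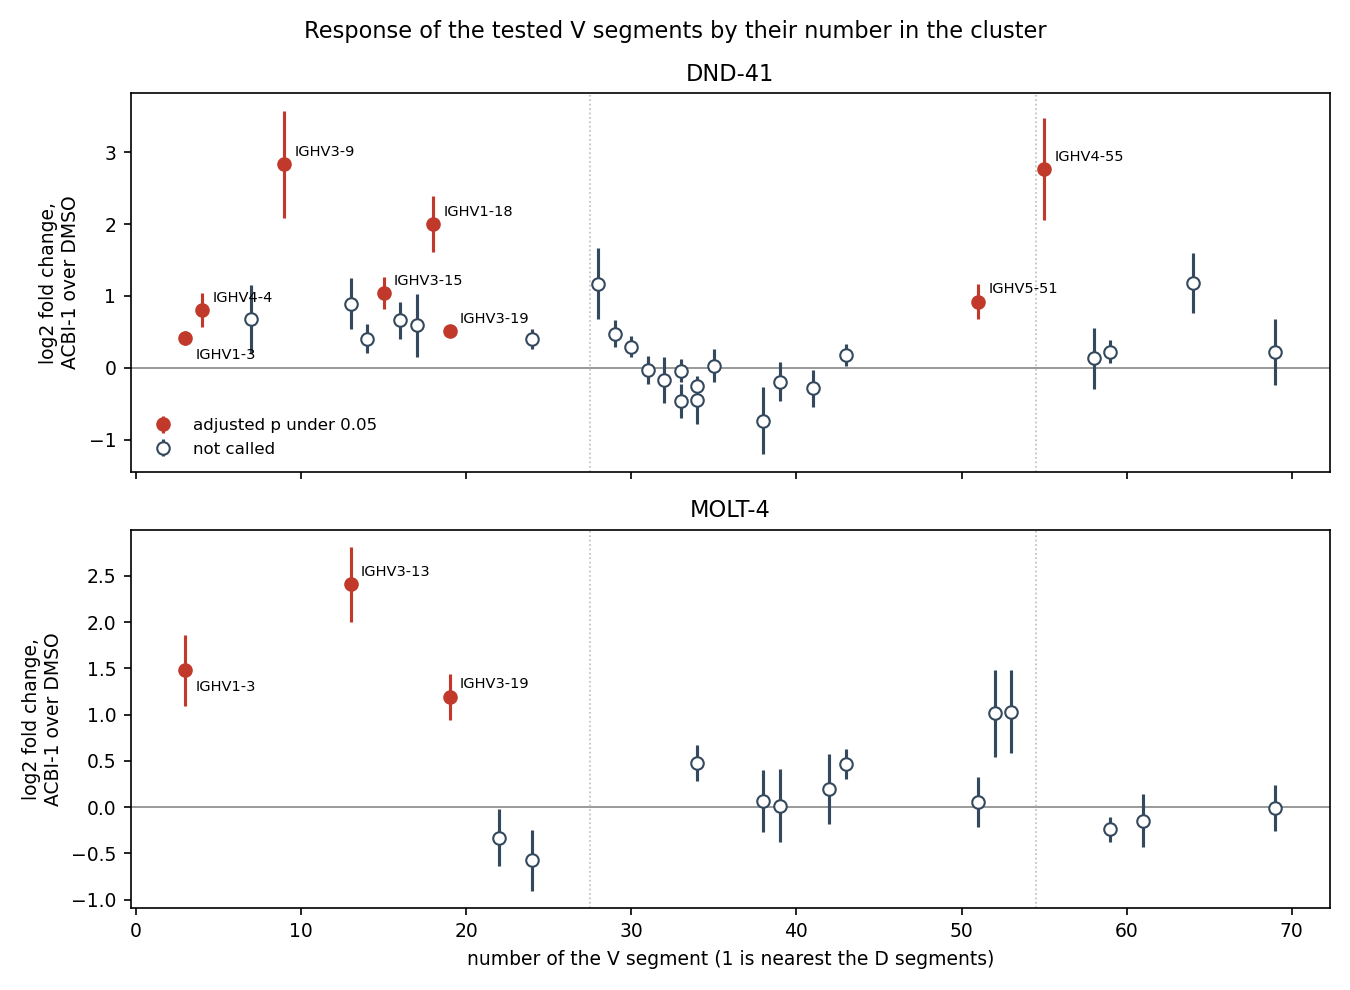
The edgeR log2 fold change of ACBI-1 over DMSO (bars, SE) against the number of each tested V segment, with dotted lines at the division into 3 stretches and filled points for members with an adjusted p under 0.05. In DND-41 all 12 tested segments numbered 1 to 27 lie above 0, and 6 of the 15 numbered 28 to 54 do. In MOLT-4 the 3 called segments lie at numbers 3, 13 and 19.

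Genes of other kinds inside the cluster gave values outside the rule. AB019440.50, a long noncoding RNA on the opposite strand 2.37 kb from IGHV3-20, had 414 and 446 counts with ACBI-1 in DND-41, against 305 and 302 with DMSO (0.49 ± 0.10, edgeR adjusted p = 0.000932). In MOLT-4 it had 44 and 46 counts with ACBI-1, against 26 and 34 with DMSO (0.55 ± 0.26, edgeR adjusted p = 0.203). HOMER2P2, a processed pseudogene 1.37 kb from IGHV3-25, had 84 and 91 counts with ACBI-1 in DND-41, against 50 and 45 with DMSO (0.87 ± 0.21, edgeR adjusted p = 0.00518). Both lie among the segments numbered 1 to 27. HOMER2P1, a related pseudogene 2.20 kb from IGHV3-42, had 185 and 167 counts with ACBI-1 in DND-41, against 159 and 208 with DMSO (-0.069 ± 0.14, edgeR adjusted p = 0.859). These were 2 of 5 such genes called in DND-41 and 0 of 4 in MOLT-4. Of the older V pseudogenes of clans II to IV, 0 of 5 tested were called in DND-41 and 1 of 5 in MOLT-4. That 1 was IGHVII-51-2, with 25 and 18 counts with ACBI-1, against 7 and 5 with DMSO (1.79 ± 0.44, edgeR adjusted p = 0.00795). It passed the filter on low counts only with its ACBI-1 libraries, so this call is no support. All clan II to IV entries summed to 340 and 343 counts with ACBI-1 in DND-41, against 298 and 268 with DMSO (ratio 1.21, no overlap). In MOLT-4 they summed to 141 and 112 counts with ACBI-1, against 113 and 93 with DMSO (ratio 1.23, overlapping).

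Other genes in or beside the heavy-chain locus, on the same chromosome end, were also read. Of this list, 0 rose and 1 fell of 8 tested in DND-41, and 0 of 7 changed in MOLT-4 by edgeR. The one that fell was BTBD6 (-0.24 ± 0.079, edgeR adjusted p = 0.0481). ADAM6, which lies between the V and D segments, was at 0 in all libraries. LINC00226, a noncoding gene of the region, had 44 and 44 counts with ACBI-1 in DND-41, against 32 and 30 with DMSO (edgeR adjusted p = 0.297). In MOLT-4 it had 3 and 0 counts with ACBI-1, against 0 and 0 with DMSO.

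By V family, the IGHV1 and IGHV3 sums were higher with ACBI-1 in both lines without overlap, the IGHV5 sum in DND-41, and the IGHV4 sum in neither. In DND-41 the IGHV1 family had 796 and 986 counts with ACBI-1, against 633 and 675 with DMSO (ratio 1.36). The IGHV3 family had 1627 and 1864 counts with ACBI-1, against 1285 and 1411 with DMSO (ratio 1.29), and the IGHV4 family 849 and 871 with ACBI-1, against 879 and 903 with DMSO (ratio 0.965). In MOLT-4 the ratios were 1.31 for IGHV1, 1.54 for IGHV3 and 0.980 for IGHV4, the last with overlapping groups. The IGHV5 family, nearly all IGHV5-51, had a ratio of 1.91 in DND-41. Its MOLT-4 ratio was 1.06, with overlapping groups. The small IGHV7 family was lower with ACBI-1 in DND-41, at 25 and 23 counts, against 28 and 33 with DMSO (ratio 0.787). In MOLT-4 IGHV7 had 12 and 12 counts with ACBI-1, against 7 and 12 with DMSO. IGHV2 had 2 to 12 counts in a library, with overlapping groups in both lines. IGHV6, a family of 1 segment next to the D segments, was at 0 in every library. Family and place are tied, since IGHV4-34 and IGHV4-59, which carry most of the IGHV4 counts, both lie beyond number 27.

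The orphons summed to 333 and 412 counts with ACBI-1 in DND-41, against 271 and 261 with DMSO (ratio 1.40). In MOLT-4 they summed to 79 and 85 counts with ACBI-1, against 75 and 81 with DMSO (ratio 1.05, overlapping). IGHV4OR15-8 was the 1 called in each line. IGHV1OR15-3, 94.0% identical to IGHV1-3, had 85 and 92 counts with ACBI-1 in DND-41, against 86 and 81 with DMSO (0.075 ± 0.18, edgeR adjusted p = 0.883). The part of reads shared between an orphon and its copy in the locus was not tested.

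The responses of the lines were compared in a fit of all 8 libraries, as the DND-41 response minus the MOLT-4 response. Of the 39 members tested, 0 differed at an adjusted p under 0.05 by edgeR, with 10 at an unadjusted p under 0.05 and 0 by DESeq2. Of all genes tested, 0.641% were called. IGHV4-34 came closest, at -0.76 ± 0.19 (edgeR adjusted p = 0.0684): its ACBI-1 libraries lay below DMSO in DND-41 and above DMSO in MOLT-4. IGHV1-3 had a difference of -1.09 ± 0.39 (edgeR adjusted p = 0.365) and IGHV3-19 one of -0.70 ± 0.25 (edgeR adjusted p = 0.349). IGHV3-13, called in MOLT-4, had 32 and 26 counts with ACBI-1 in DND-41, against 12 and 19 with DMSO (edgeR adjusted p = 0.117), and a difference of -1.54 ± 0.58 (edgeR adjusted p = 0.400), so a difference between the lines was not shown for it.

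Of the 14 members tested in both lines, 3 were called as higher in both, IGHV1-3, IGHV3-19 and IGHV4OR15-8. Of all 12968 genes tested in both lines, 1.6% were called as higher in both. In MOLT-4, IGHV1-3 and IGHV4OR15-8 passed the filter on low counts only with their ACBI-1 libraries, so this share is no support. The fitted fold change was above 0 in both lines for 6 of the 14, above 0 in DND-41 and below 0 in MOLT-4 for 5, and the reverse for 3. In each of the 3 shared calls the fitted log2 fold change was larger in MOLT-4, where the counts were at most 70 in a library, and the difference did not pass the test.

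DND-41 had more heavy-chain transcript than MOLT-4 in DMSO. The sums were 157 and 166 CPM in DND-41, against 39.4 and 41.1 CPM in MOLT-4, a ratio of 4.01. Segments 1 to 27 averaged 64.6 CPM in DND-41 and 6.39 CPM in MOLT-4, a ratio of 10.1. Segments 28 to 54 averaged 75.0 CPM in DND-41 and 14.5 CPM in MOLT-4, a ratio of 5.17. The ratio was thus higher next to the D segments, while the difference in CPM was of like size in both stretches. For segments 55 to 81 the ratio was 0.535. Segments 55 to 81 had 142 and 188 counts in DND-41, against 293 and 319 in MOLT-4. These values led to the choice of the locus and are given with no test.

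**Figure D4:**
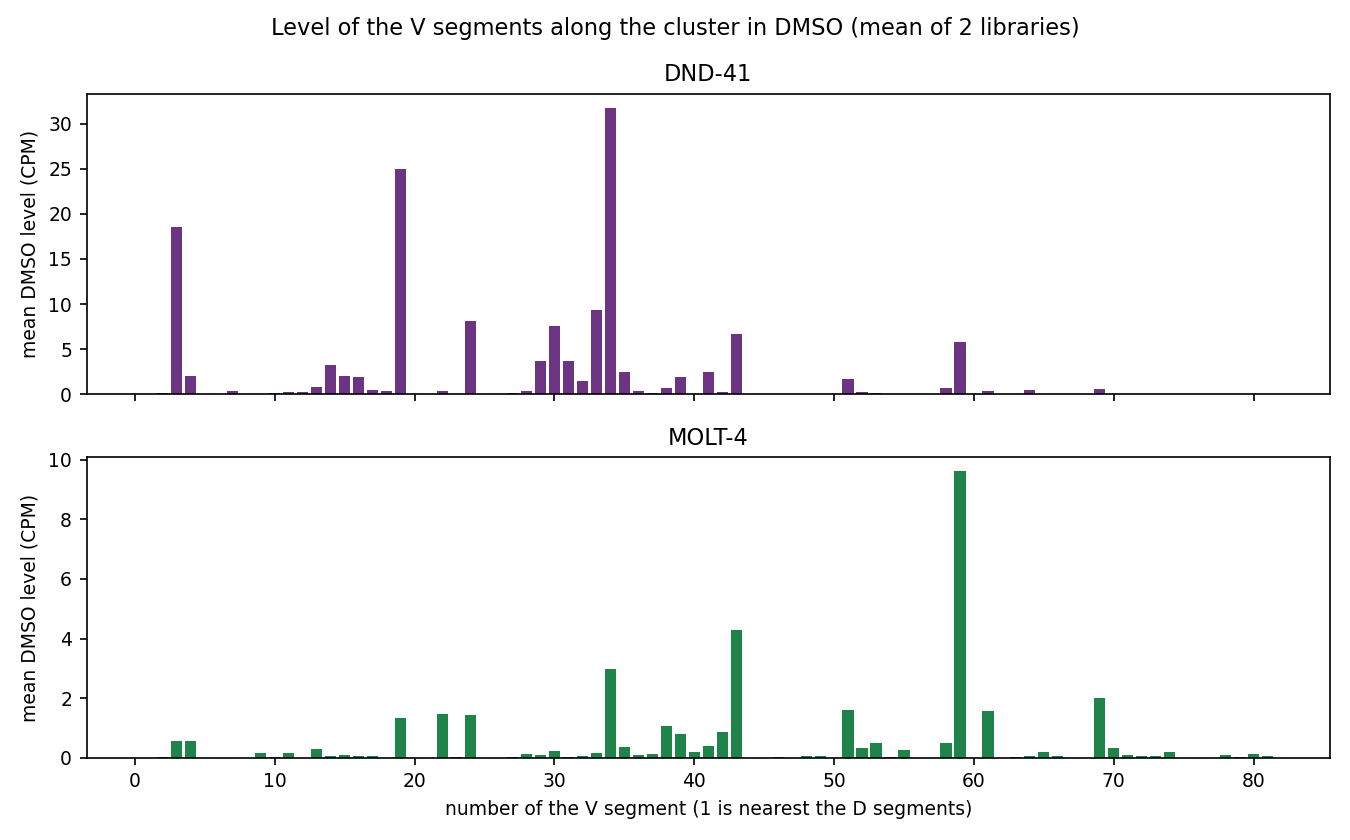
Mean DMSO level of V segments in CPM (2 libraries) by segment number, with DND-41 above MOLT-4 and separate linear scales. DND-41 has its highest bars at numbers 34, 19 and 3, and MOLT-4 at numbers 59, 43 and 34.

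Single segments differed widely between the lines in DMSO. Of the 39 members tested, 25 were at least 2-fold higher in DND-41 without overlap, which held for 12.8% of all genes tested. Another 5 were at least 2-fold higher in MOLT-4, against 14.6% of all genes, and 9 were neither. Members entered this count through the line where they are high, 35 being tested in DND-41 and 19 in MOLT-4, so the count against all genes is no support. IGHV1-3 was 33.6-fold higher in DND-41, IGHV3-19 was 18.8-fold higher and IGHV4-34 was 10.8-fold higher. IGHV4-31 had 69 and 78 counts in DND-41, against 1 and 0 in MOLT-4.

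The 5 higher in MOLT-4 were IGHV1-69, IGHV3-22, IGHV3-42, IGHV3-53 and IGHV4-61. IGHV4-61 had 8 and 5 counts in DND-41, against 31 and 32 in MOLT-4, and IGHV1-69 had 11 and 12 counts in DND-41, against 40 and 40 in MOLT-4. IGHV4-59 had 102 and 129 counts in DND-41, against 184 and 198 in MOLT-4, below the 2-fold limit. IGHV5-51 and IGHV1OR15-1 were at like levels, with 31 and 37 counts of IGHV5-51 in DND-41, against 31 and 33 in MOLT-4. One DND-41 DMSO library, replicate 2, held traces of genes otherwise seen in MOLT-4 alone: 18 such genes stood there at a median of 0.569% of their MOLT-4 level, a share that would give 4.55 of its 3327 heavy-chain counts.

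The T-cell receptor loci, which are joined by the same enzymes in T cells, had other values. The TRB genes summed to 21681 and 23827 counts with ACBI-1 in DND-41, against 22597 and 23782 with DMSO, and to 109899 and 115060 counts with ACBI-1 in MOLT-4, against 109458 and 109914 with DMSO. The groups overlapped in both lines for TRB in CPM. The TRG sum was lower with ACBI-1 in both: 692 and 579 counts with ACBI-1 in DND-41, against 782 and 867 with DMSO, and 125 and 95 counts with ACBI-1 in MOLT-4, against 259 and 247 with DMSO. The TRD sum was 2679 and 2659 counts with ACBI-1 in DND-41, against 2149 and 2161 with DMSO (ratio 1.24), and 0 to 3 counts in each MOLT-4 library. The TRA sum had a ratio of 1.11 in DND-41 with overlapping groups and 0.647 in MOLT-4 without overlap.

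Genes of the joining machinery were listed as background for the locus. Of the V(D)J recombination genes, 2 rose and 0 fell of 14 tested in DND-41, and 2 rose and 0 fell of 13 tested in MOLT-4. POLM, a polymerase that fills gaps during end joining, rose in DND-41 (0.41 ± 0.068, edgeR adjusted p = 7.05e-05) and in MOLT-4 (0.37 ± 0.065, edgeR adjusted p = 0.000272). RAG1, a subunit of the recombinase, had 15420 and 14713 counts with ACBI-1 in DND-41, against 12538 and 12207 with DMSO (0.28 ± 0.077, edgeR adjusted p = 0.0165). In MOLT-4 RAG1 had 1268 and 2020 counts with ACBI-1, against 1308 and 1950 with DMSO (edgeR adjusted p = 0.976). LIG4, the ligase of end joining, rose in MOLT-4 (0.41 ± 0.088, edgeR adjusted p = 0.00247). Of the class switch and hypermutation genes, 1 of 12 rose in each line and 0 fell.

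A list of regulators of heavy-chain enhancers and promoters held DNA-binding factors, a coactivator and the ID proteins, which do not bind DNA but hold E proteins off it. Of its members, 2 rose and 3 fell of 22 in DND-41, and 3 rose and 2 fell of 22 in MOLT-4 by edgeR. ID3, an inhibitor of E proteins, rose in DND-41 (1.27 ± 0.077, edgeR adjusted p = 7.00e-14), with 2445 and 2952 counts with ACBI-1, against 1152 and 1068 with DMSO. POU2F1, also called OCT1, which binds the octamer of V promoters, rose in DND-41 (0.33 ± 0.083, edgeR adjusted p = 0.00704) and had -0.14 ± 0.076 in MOLT-4 (edgeR adjusted p = 0.310). FLI1, an ETS-family factor, fell in DND-41 (-0.59 ± 0.069, edgeR adjusted p = 1.62e-07) and in MOLT-4 (-0.43 ± 0.066, edgeR adjusted p = 5.08e-05). ID1, another inhibitor of E proteins, fell in DND-41 (-1.06 ± 0.21, edgeR adjusted p = 0.000665) and also in MOLT-4 (-1.32 ± 0.16, edgeR adjusted p = 2.50e-06). ETS1 and IKZF1 rose in MOLT-4, by 0.46 ± 0.060 and 0.47 ± 0.064 (edgeR adjusted p = 5.85e-06 for ETS1 and 9.42e-06 for IKZF1). ARID3A, a factor known to bind near heavy-chain promoters and the intronic enhancer, went opposite ways. It had 994 and 1049 counts with ACBI-1 in DND-41, against 1216 and 1269 with DMSO (-0.29 ± 0.074, edgeR adjusted p = 0.00819). In MOLT-4 ARID3A had 347 and 317 counts with ACBI-1, against 268 and 249 with DMSO (0.33 ± 0.11, edgeR adjusted p = 0.0438). The DND-41 response minus the MOLT-4 response of ARID3A was -0.65 ± 0.12 (edgeR adjusted p = 0.00649).

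Markers of other lymphoid states were counted as lists. Of the B-cell markers, 0 of 9 tested changed in DND-41 by edgeR, and 1 of 8 changed in MOLT-4. That 1 was VPREB1, a surrogate light-chain subunit, with 78 and 67 counts with ACBI-1, against 137 and 109 with DMSO (-0.79 ± 0.17, edgeR adjusted p = 0.00291). Of the plasma cell markers, 0 of 7 changed in DND-41 and 1 of 5 in MOLT-4, where XBP1 fell (-0.25 ± 0.069, edgeR adjusted p = 0.0147). Of the T-cell markers, 2 rose and 0 fell of 16 in DND-41, and 1 rose and 4 fell of 17 in MOLT-4. No myeloid marker passed the filter on low counts, and their sum was at most 0.604 CPM in any library. The part of these marker shifts in the heavy-chain values was not tested.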

How the data were processed

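Total RNA of 8 libraries, 2 per group, was sequenced by strand-specific paired-end reads, per the labels' protocols. The authors deposited raw counts per gene for each line. Per the submitters' processing notes, STAR 2.5.2a, featureCounts, DESeq2 1.12.4 and hg19 were used. The gene models and whether counting used the strand are not stated there, so sense and antisense reads over a V segment cannot be told apart. The authors also deposited, per the file headers, log2 fold changes with a standard error, p-values and adjusted p-values, a mean signal of normalized counts, and a test score per gene. Their sign direction was read from the correlation with edgeR's log2 fold changes, r = 1.00 over 14019 genes in DND-41 and -1.00 over 14470 genes in MOLT-4.

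Counts were tested with edgeR 4.0.16 (R 4.3.3, limma 3.58.1): quasi-likelihood F-test, TMM scaling, filterByExpr, Benjamini-Hochberg over all genes, threshold 0.05, each line on its own, and the difference between lines in 1 fit of all libraries. CPM used total counts. Levels, the sums, the stretches of the cluster and the lines were described without a test. DESeq2 1.42.0 was an alternative. All sample columns of the count tables were matched to the labels. No replicate pair was identical, and the chi-square between replicates averaged 2.99 to 15.6 per gene, so all 8 libraries counted separately. The members and lists were chosen with earlier results of these data known. Text names all constant genes, every called member, and the 10 highest segments per line with at least 20 counts. IGHV4-31, the segments higher in MOLT-4, the 5 others lower in DND-41, LINC00226, ADAM6 and HOMER2P1 were named after their values were seen. The same holds for CD79A, PAX5, MS4A1, IGLL1, BLK, EBF1 and ARID3A. Of the 83 members with a count, 72 matched GENCODE 29 by identifier, 8 by symbol and 3 not at all. GENCODE 29 sequences are on GRCh38, another build than hg19.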

Additional observations from a re-analysis of the deposited data

How the results depend on the processing

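The DND-41 count of 9 called members was 9 with DESeq2 size factors in edgeR, 10 with a GC correction chosen after seeing the data, and 7 with all 8 libraries in 1 fit. It was 3 with DESeq2 and 0 with no filter on low counts, where 76 members entered and 2 genes were called in all, and 0 to 7 leaving out 1 library in turn. The MOLT-4 count of 4 was 4 with the other size factors, 5 with the GC correction and 4 in the fit of 8 libraries. It was 0 with DESeq2, 0 with no filter, and 0 to 3 leaving out 1 library. With 1 library left in a group, that library is assumed to vary like the other group.

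The labels give no pairing of the samples by replicate number. Over all tested genes, same-numbered libraries had deviations correlated at r = 0.0669 in DND-41 and 0.0670 in MOLT-4, which does not settle it. With the replicate number as a block, genes called went from 1378 to 2230 in DND-41 and from 1568 to 2228 in MOLT-4. Fitted with the replicate number as a block, edgeR called 13 members in DND-41 (12 higher, 1 lower), 5 members in MOLT-4, and 1 for the difference between lines, against 0 without it. That difference between lines stayed at 0 called members under the other alternatives run, including each fit without 1 library.

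The log2 ratio of the locus sums was 0.30 in DND-41 (0.19 to 0.39 leaving out 1 library) and 0.29 in MOLT-4 (0.26 to 0.32). Between lines in DMSO it was 2.002, 1.95 with TMM library sizes, 1.92 on totals without mitochondrially encoded genes, and 1.96 to 2.04 leaving out 1 library. No called member reversed under any alternative. Depth limits the low segments: 36 of 83 members had under 20 counts over 8 libraries.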
